A study of Mus musculus with 4 samples.

Results

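The 6 genes described here, Kit, Runx1, Etv6, Slamf1, Gata2 and Nfe2, encode regulators of hematopoietic stem and progenitor cells, and were selected on the peak readout itself: a listed pSTAT3-Y705 peak names each as its nearest gene in at least 1 library. They are 6 of 958 gene names in the table of peaks. STAT3 is a transcription factor that, once phosphorylated on a tyrosine (Y705), forms dimers and binds DNA, and this form was immunoprecipitated and sequenced from LSK (Lin-Sca1+cKit+) bone marrow cells, a sorted fraction in which stem cells and early progenitors are found. All mice were C57BL/6. CML-TKI cells came from mice of the chronic myeloid leukemia model given imatinib, an inhibitor of the BCR-ABL kinase, CML cells from untreated mice of that model, and WT cells from untreated wild-type mice. The model carries 2 transgenes, BCR-ABL and SCL-tTA, and expresses BCR-ABL in stem and progenitor cells once tetracycline is withdrawn. Imatinib was given on alternate days, but its dose is labelled in 2 ways, as 200 mg/kg over 4 weeks (treatment label) and as 400 mg/kg over 30 days (protocol). With a single library for each of CML-TKI, CML and WT, differences between them have no replicates to check them, and none was tested.

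Stem cell identity is held by a small set of transcription factors that bind together at enhancers, often far from the promoters they act on, and by surface receptors that receive niche signals. RUNX1, GATA2 and ETV6 (an ETS family repressor) are such factors, NFE2 acts further along the megakaryocytic and erythroid path, KIT is the receptor for stem cell factor and part of the LSK definition, and SLAMF1 is CD150, a surface antigen used to isolate stem cells. STAT3 itself acts downstream of cytokine receptors. The table holds peak positions and annotation and no expression values, so whether the sorted cells carried these markers could not be checked.

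The 6 genes had 22 entries for CML-TKI, 4 for CML and 12 for WT. Repeated listings of a peak were then collapsed, which gave 12 distinct peaks for CML-TKI, 2 for CML and 6 for WT, out of 1757, 715 and 746 distinct peaks in those libraries. CML-TKI named all 6 genes, CML named 2 (Kit and Nfe2) and WT named 5 (all but Gata2). Of all protein-coding genes, CML-TKI named 2.68%, CML 1.93% and WT 1.03%. These counts describe the choice of genes and are not evidence of enrichment, because naming by a peak was what selected them. The deposited table is much shorter than the peak sets the study describes, so its counts and gaps are those of the table and not of all peaks called. It gave no read count or enrichment, so the depth behind a peak is unknown and a missing peak cannot be read as missing binding.

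The peaks of the 6 genes fell on 7 sites. CML-TKI listed all 7, and the Kit and Nfe2 sites were listed in every library. The Runx1 site, the Slamf1 site and the intronic Etv6 site were listed in CML-TKI and WT but not in CML, and the Etv6 promoter and Gata2 sites in CML-TKI alone. The share of all sites listed in the same libraries was not computed. Whether this pattern is particular to the 6 genes is therefore not known. Of the 7 sites, 5 lay more than 5 kb from the transcription start site (TSS) they were named for. Positions below are in mm9.

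**Figure D1:**
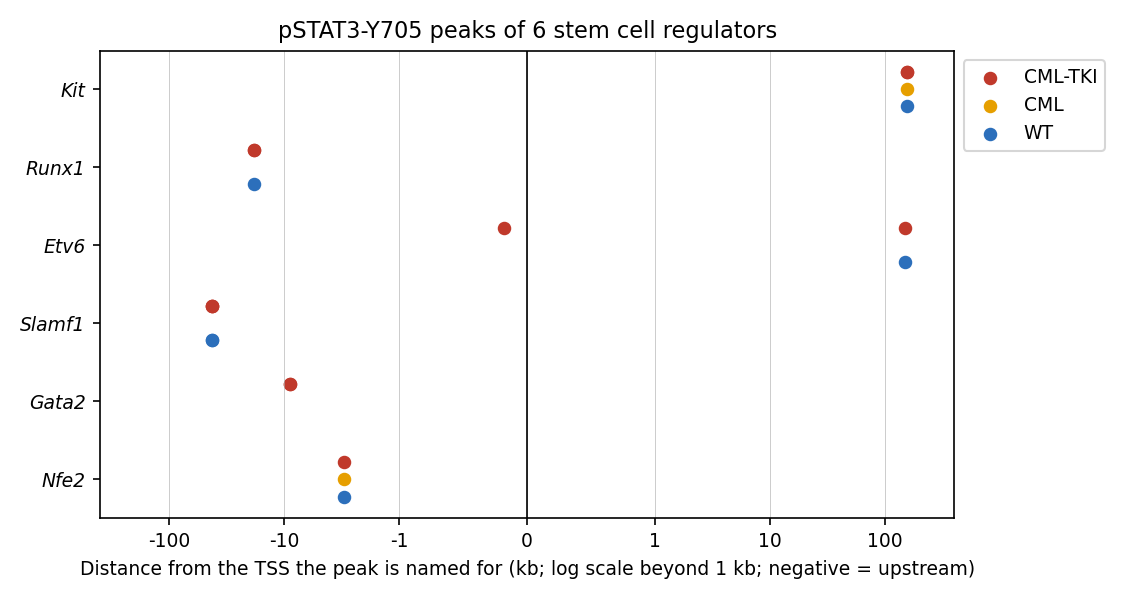
Signed distance (kb) of each listed peak of the 6 genes from the TSS it is named for, with 1 point per distinct peak in CML-TKI, CML and WT. Most points lie far from the TSS, as do most peaks of each library. The Etv6 promoter peak of CML-TKI, at -183 bp, is the closest.

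Runx1 encodes the DNA-binding part of core binding factor, which is needed for blood stem cells to form. Its site lay in an intron in both libraries that listed it. CML-TKI had peaks at chr16:92715814-92716028 (214 bp wide, 3 entries) and chr16:92715827-92715984 (157 bp, 1 entry), and CML had none. WT had chr16:92715827-92715984 with the same ends (2 entries). The table measured these peaks from the proximal start of Runx1, at -18347 bp and -18331 bp. It placed them in intron 2 of 6 of the transcript that starts at the distal promoter, so the site lies between the 2 Runx1 promoters.

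That position could be compared with known enhancers of the gene. In the GRCm38 annotation the distal start lies 128745 bp upstream of the proximal one. The spacing from the proximal start to a neighbour named in the table on the far side of the distal start, 1810053B23Rik, is 655860 bp both in mm9, as the peak distances imply, and in GRCm38. With this spacing the CML-TKI peaks lay 110398 and 110414 bp downstream of the distal start, and the WT peak 110414 bp. Runx1 enhancers are named by their distance in kb from the distal start, and the site lay 0.4 to 0.41 kb from the position of the element called +110. These names are in whole kb, so a gap this small is not resolved. The stem cell enhancer called +23 is at the opposite end of the interval. The only other peak with ends within 1 Mb was that of 1810053B23Rik in CML, 594.3 kb from the site. The ends of these elements were not in the files used here, so overlap with them was not tested.

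Gata2 encodes a zinc finger factor that stem cells need to survive and expand. It was named in CML-TKI alone, by 2 overlapping peaks, chr6:88139531-88139754 (223 bp, 2 entries) and chr6:88139545-88139766 (221 bp, 1 entry). Both were intergenic and carried the annotation of a CpG island, as did 2.56% of distinct CML-TKI peaks. They lay at -9016 and -9003 bp from the start that the table used, and neither CML nor WT listed a peak for the gene.

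Gata2 also has an upstream start, 4773 bp before the start used in the table (GRCm38). From this upstream start the CML-TKI peaks lay at -4243 and -4230 bp. Binding sites for GATA factors at Gata2 are named by their distance from the upstream start, as -77, -3.9, -2.8, -1.8 and 9.5 kb. The nearest of these to the CML-TKI peaks was -3.9, at 0.33 to 0.34 kb from the peak centres. The extents of these elements were not known here, so overlap of a peak with any of them was not tested.

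CML listed a peak at the Gata2 locus under another name. This peak, chr6:88067055-88067208 (153 bp wide, intergenic), was named for the microRNA gene Mir6376, at -12879 bp from its TSS. Measured from Gata2 it lay at -81527 bp from the start used in the table and at -76754 bp from the upstream start. The position is 0.25 kb from that of the -77 element, a distal enhancer of Gata2 in myeloid progenitors. The name of this element gives its position in whole kb, so a gap this small is not resolved. Overlap with that element was not tested. The spacing between the Mir6376 and Gata2 starts is 94406 bp in both builds. CML-TKI and WT listed no peak with ends there. The count of genes named per library therefore depends on the nearest-gene rule at this locus: CML had no peak named for Gata2 but had 1 upstream of it, 72.5 kb from the CML-TKI site. A further CML peak, named for Arhgap25, lay 647.5 kb from that site.

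**Figure D2:**
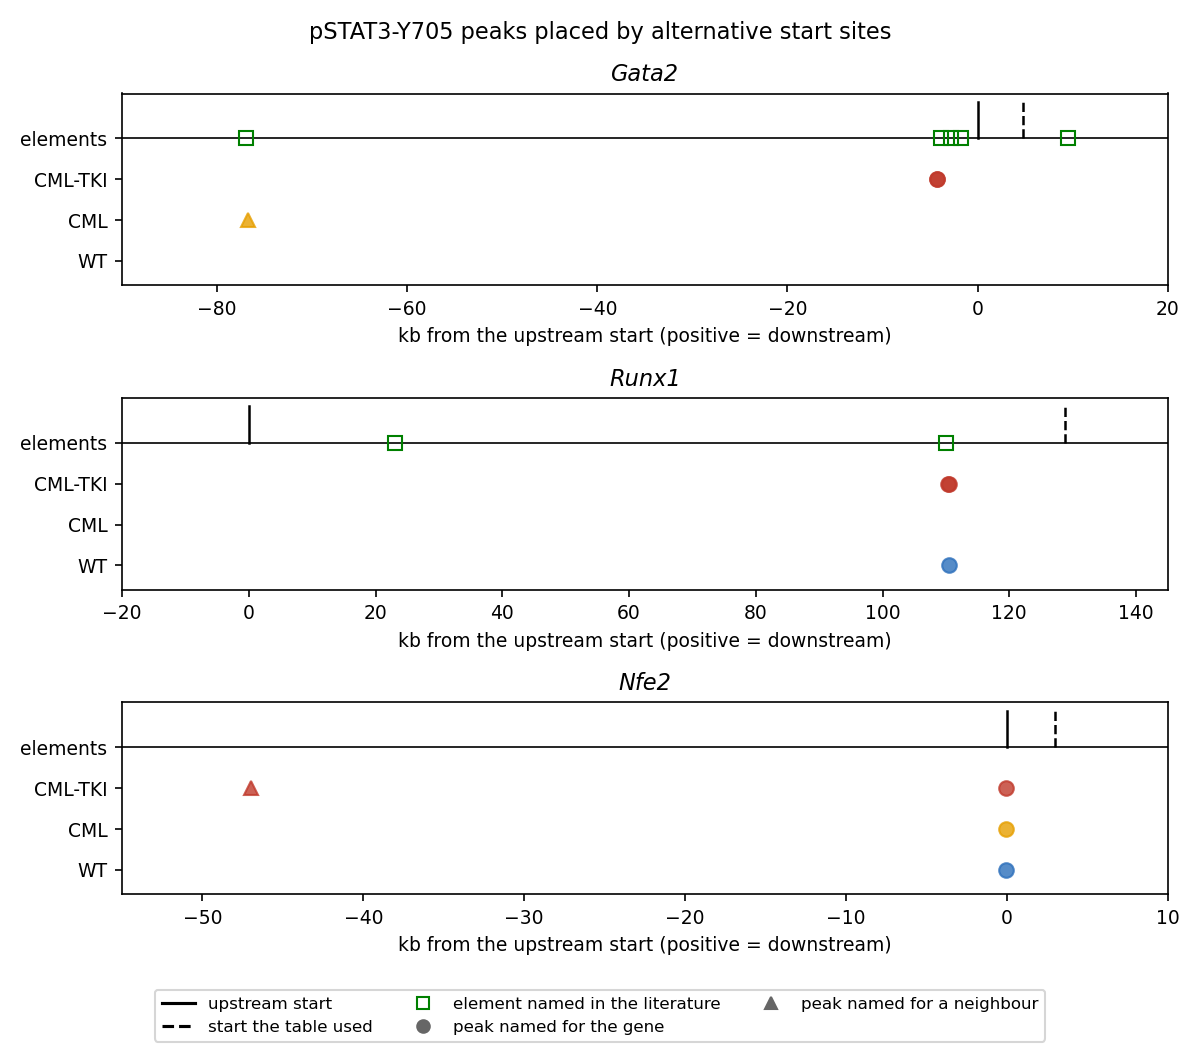
Listed peaks (circles where named for the gene, triangles where named for a neighbour) by distance in kb from the upstream start of Gata2, Runx1 and Nfe2, with a row each for CML-TKI, CML and WT, and squares at elements named in the literature by distance. Open green squares lie near the CML-TKI Gata2 peaks (-4.2 kb), the CML peak named for Mir6376 (-76.8 kb) and the Runx1 peaks of CML-TKI and WT (110.4 kb).

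Nfe2 encodes the tissue-specific subunit of NF-E2, which drives globin and platelet genes together with small MAF proteins. Every library listed its site. The single CML-TKI entry was rounded to the nearest 1 Mb and took its ends from the other libraries, whose entries gave the same distance. CML had chr15:103088747-103089008 (261 bp, 2 entries, 1 of them rounded) and WT the same ends (2 entries). The peak was annotated as intergenic at -3030 bp in all 3 libraries. Another Nfe2 transcript in GRCm38 starts 2964 bp upstream of the start used, which puts the centre of the peak 66 bp upstream of that start, within the width of the peak. The spacing from Nfe2 to its neighbour Gpr84 differs by 23 bp between the builds, so the distance of 66 bp is uncertain by about that much. The nearest other peak with ends, in CML-TKI only, lay 46.9 kb from the site on a CpG island and was named for Gpr84. Another CML-TKI peak, named for Glycam1, lay 393.2 kb away.

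Etv6 had a promoter peak in CML-TKI alone. The peak, chr6:133985423-133985661 (238 bp wide, 3 entries), covered -302 to -64 bp from the TSS and was the only peak of the 6 genes that the table annotated as promoter. Of distinct CML-TKI peaks 14.7% lay within 1 kb of a TSS. The RefSeq promoter window of Etv6 (GRCm38.p6, chr6:134035450-134035749, plus strand, 250 bases before the start to 50 from it) is shown because its first 186 bases fall under this peak. The starts in the table and in GRCm38 may differ by 7 bp. Capitals mark the match to the STAT motif TTCNNNGAA.
Etv6 promoter: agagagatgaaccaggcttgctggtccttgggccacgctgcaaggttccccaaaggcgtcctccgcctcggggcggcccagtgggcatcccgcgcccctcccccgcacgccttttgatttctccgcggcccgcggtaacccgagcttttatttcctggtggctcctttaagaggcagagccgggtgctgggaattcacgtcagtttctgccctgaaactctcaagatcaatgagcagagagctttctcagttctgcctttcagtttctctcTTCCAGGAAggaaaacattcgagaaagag
The match, TTCCAGGAA, spans bases 22 to 30 after the start and begins 86 bases beyond the end of the peak. The motif reads the same on both strands. Of 32851 RefSeq promoter windows of this length 8.30% hold it, and the promoter windows found for Kit, Runx1, Slamf1 and Gata2 hold none. The sequence under the other peaks was not read, because no mm9 genome was used here.

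The second Etv6 site lay within the gene, in intron 2 of 7, 150720 bp from the TSS. CML-TKI had a single rounded entry for it, which took its ends from WT by the same distance, and CML listed none. WT listed it at chr6:134136361-134136529 (168 bp, 4 entries, of which all but 1 were rounded). CML-TKI thus listed both Etv6 sites, CML neither and WT the intronic one. CML listed a promoter peak for 1190002F15Rik 741.9 kb from the intronic site.

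Kit was named in every library by 1 site in the intergenic region beyond its end. CML-TKI had peaks at chr5:76126658-76126894 (236 bp, 3 entries) and chr5:76126663-76126840 (177 bp, 1 entry). CML and WT had only the narrower peak, with identical ends (2 entries each). The distance was positive, 155735 bp for the narrow and 155760 bp for the wide peak, which places the site downstream. The Kit transcript spans 81732 bp in GRCm38, so the site lies about 74.0 kb past the end of the gene. The best known distal Kit enhancer, studied in mast cells and progenitors, lies upstream of the gene, on the other side from this site, and other elements lie within the gene. The only other peak with ends within 1 Mb was named for Srd5a3 in CML-TKI, 438.8 kb away.

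Slamf1 was named by a site 42 kb upstream of its start, in sequence of an LTR retrotransposon. CML-TKI had chr1:173654620-173654950 (330 bp, 3 entries) and chr1:173654661-173654953 (292 bp, 2 entries) at -42478 and -42456 bp, and CML had none. WT had chr1:173654620-173654953 (333 bp), whose start matched one CML-TKI peak and whose end matched the other. Its listed distance of -42456 bp differs by 20 bp from the centre of those ends. Both CML-TKI and WT also held a rounded entry at -42485 bp for which no ends were listed. Every entry of the site was annotated as RMER16-int, an internal part of an ERVK element. Repeats of that name held 74 of 1757 distinct CML-TKI peaks, 14 of 715 CML peaks and 19 of 746 WT peaks. The raw counts are thus from libraries of unlike size. Copies of a repeat share sequence, and the part of read placement among copies in this peak was not tested. CML listed a peak in the neighbouring SLAM family gene Cd84 (chr1:173779888-173780039, intron), 125.2 kb from the Slamf1 site, and CML-TKI an intergenic peak named for Ccdc19, 789.5 kb from it.

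Where a site was listed in several libraries the ends were often the same to the base. The narrow Kit and Runx1 peaks had identical ends in each library that listed them, as did the Nfe2 peak in CML and WT. Of all CML peaks with listed ends, 45.4% shared both with a CML-TKI peak. Of all such WT peaks, 39.1% had the ends of a CML-TKI peak and 10.3% those of a CML peak. How shared ends arose was not tested, and the peak positions of different libraries may not be independent of each other.

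**Figure D3:**
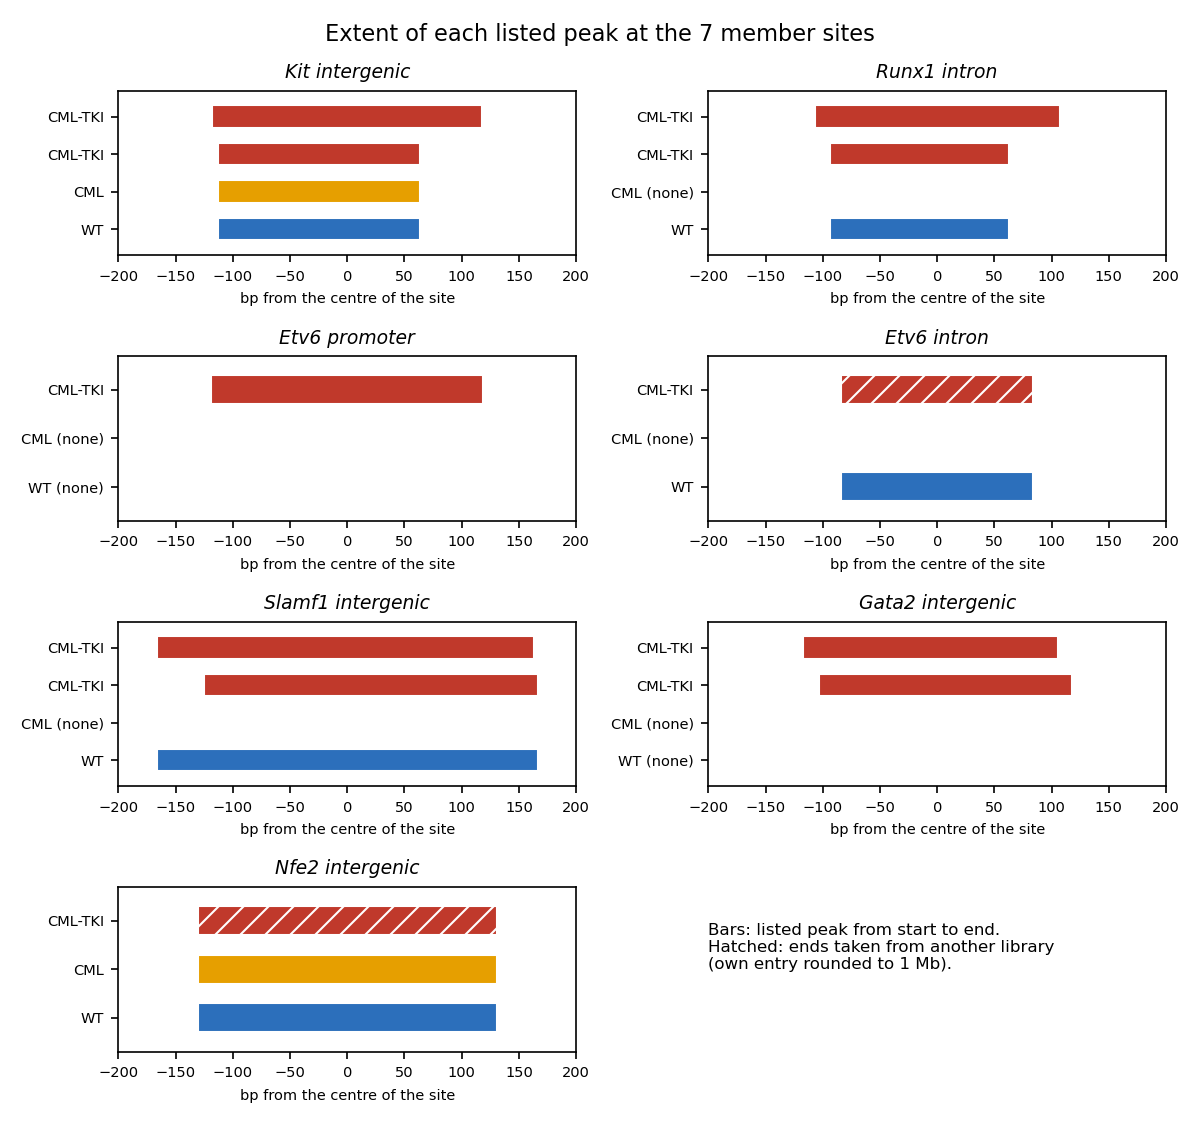
Extent of each distinct peak at the 7 sites in bp from the site centre, in rows for CML-TKI, CML and WT. Hatched bars have ends taken from another library, and the Slamf1 entries without listed ends are not drawn. The narrow Kit bars share both ends in all 3 libraries, and CML-TKI adds a wider one of 236 bp.

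Peak width was not used to choose the genes. Member peaks ranged between 157 and 330 bp in CML-TKI, were 177 and 261 bp in CML, and ranged between 157 and 333 bp in WT. The median over all peaks was 217 bp in CML-TKI, 187 bp in CML and 348 bp in WT. All 5 WT member peaks with ends were narrower than the WT median. The 157 bp Runx1 peak was narrower than 85.2% of CML-TKI peaks and 93.6% of WT peaks, and the 177 bp Kit peak than 70.1% of CML-TKI, 57.5% of CML and 86.4% of WT peaks. The widest, at Slamf1, was narrower than 24.7% of CML-TKI peaks and 53.2% of WT peaks. By distance, 20.7% of CML-TKI, 20.3% of CML and 25.9% of WT peaks lay farther from their TSS than the narrow Kit peak, so distal positions of this order were common in the table.

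**Figure D4:**
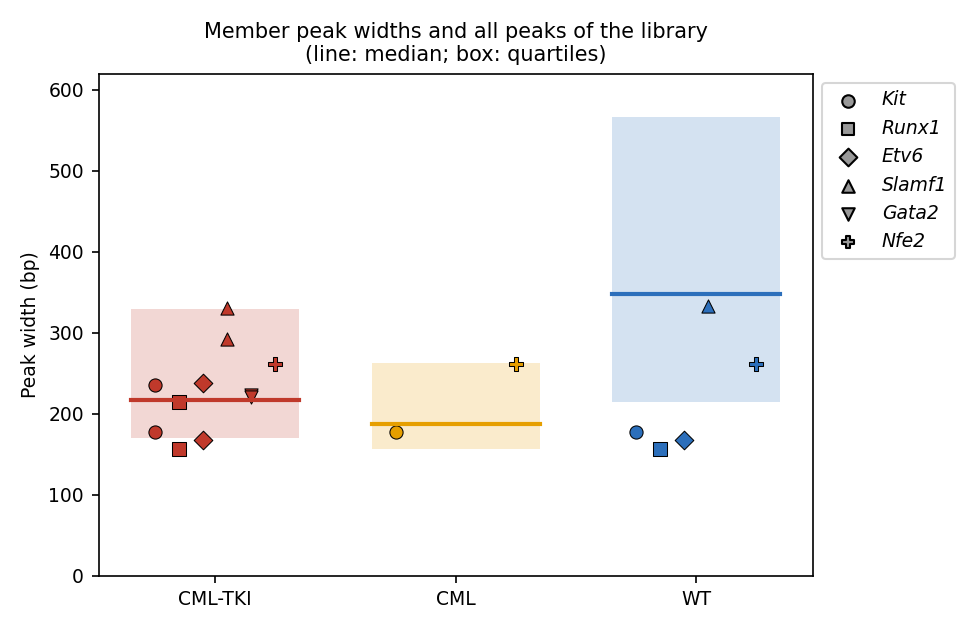
Width in bp of the member peaks (symbols, by gene) in CML-TKI, CML and WT, over the median (line) and quartiles (box) of all distinct peaks of each library. The WT symbols all lie below the WT median of 348 bp.

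Other stem cell regulators were looked up in 2 lists of 50 genes in all, 30 transcription factors and 20 surface proteins and receptors. The 6 genes were the only ones named in any library. They were selected because a peak names them, and the lists were chosen with earlier results known. That result was therefore partly fixed by the selection. The other 44, among them Tal1, Lmo2, Lyl1, Fli1, Erg, Meis1, Mecom and Cd34, had 0 named in each library. Of all protein-coding genes, CML-TKI named 2.68%, CML 1.93% and WT 1.03%. With shares this low, a count of 0 among 44 genes does not set them apart from other genes. The table names few genes at all, so these counts do not show that the loci were unbound.

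In a list of 21 genes of KIT signaling, CML named 3 and WT 0, and those named in CML-TKI included Pik3r1 and Stat3. Of all protein-coding genes, CML-TKI named 2.68%, CML 1.93% and WT 1.03%. The list was chosen with earlier results of these data known, so its counts are not evidence of enrichment. Pik3r1, the regulatory subunit of PI3 kinase, was named in CML-TKI and CML by an intergenic peak with the same distance (-33304 bp). Stat5b, a STAT protein activated by BCR-ABL, was named in CML by an intronic peak in a SINE repeat (12974 bp), and Stat3 by promoter peaks in CML-TKI and CML.

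Among 22 family members and partners of the 4 factors, CML-TKI named 2, CML 1 and WT 0. The shares of all protein-coding genes, for this list and the SLAM list below, were 2.68%, 1.93% and 1.03% in the same order. Runx2, a RUNX factor best known from bone, was named in CML-TKI (intron, chr17:44791525-44791690, 81518 bp), as was Mafg, a small MAF partner of NFE2 (intron, chr11:120491834-120492036, 2926 bp). Runx3, the third family member, was named in CML by an intergenic peak at -65989 bp (chr4:134610478-134610665). Of 10 SLAM family genes apart from Slamf1, Cd84 in CML was the only one named.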

How the data were processed

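The members and lists were chosen with earlier results of these data known. Libraries were prepared from sorted LSK cells with an antibody to pSTAT3-Y705. By the study's methods, reads were cleaned, aligned with bwa mem and called with MACS2, HOMER, Genrich and SICER2, and peaks were merged and annotated with HOMER, though peaks of 1 library in the deposited table still overlap, so whether it came from these steps is not known. Partek 8.0 also stands in the submitters' processing notes. The authors' table holds position, region, repeat and distance to the TSS, and no score. The methods name mm10, but ends on 6 chromosomes pass the GRCm38 lengths, so positions are given as mm9. The input sample was not analysed here.

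Entries rounded to 1 Mb (11 of the 38 for these genes) were dropped where the library listed the same TSS and distance with full ends, and otherwise took the ends of another library or, failing that, were placed by distance with an assumed width of 200 bp. Overlap meant at least 1 bp and sites were merged within 1 kb. The TSS in mm9 was computed from the peak centre and listed distance, as the median over CML-TKI and CML entries. GRCm38 was used only for gene names (955 of 958 matched), spacing between starts and the RefSeq promoter windows. Enhancer positions were taken from background knowledge, by their names. Named genes were the 6 members, every gene of the lists that a peak named (except 1 not reported here), and genes named by other peaks within 1 Mb. Some list genes that no peak named are given outside this rule as examples. Alternatives were limits of 100 and 10 kb from the TSS, no repeats, peaks of at least 200 bp, other counting units and other overlap rules. The steps were tested on simulated peaks. Python 3.11.15, numpy 2.4.6, pandas 2.3.3 and matplotlib 3.10.9 were used.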

Additional observations from a re-analysis of the deposited data

How the results depend on the processing

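No paired analysis was possible because CML-TKI, CML and WT had a single library each. Of 30 alternative values, 17 stayed within 1.5 times of the value reported and 13 did not. The values for the stem cell lists repeat those of the 6 genes, which were the only list genes named. The 30 are therefore not all separate checks. With peaks within 100 kb of the TSS, 1 of the 6 genes was named in CML and 3 in WT, and the stem cell lists held these same genes. Within 10 kb, CML-TKI named 3, CML 1 and WT 1. With peaks of at least 200 bp, 1 was named in CML and 2 in WT. The share of all genes named under each limit was not computed, so these counts have no background beside them. Counting every listed entry in place of distinct peaks gave 22 for CML-TKI, 4 for CML and 12 for WT, and merging within 1 kb left 7 for CML-TKI. The genes with overlapping peaks numbered 2 for CML-TKI and CML, 5 for CML-TKI and WT and 2 for CML and WT under each overlap rule tried. The matching share over all genes was not computed. By identical ends over all peaks, CML shared more with CML-TKI (45.4%) than WT did (39.1%). The CML-TKI peaks of Nfe2 and of the Etv6 intron had ends taken from another library. Their overlap was therefore fixed in advance under every rule. By construction, the limits on distance, repeats and width keep fewer peaks, the entry count holds repeated listings, and merging joins nearby peaks.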

Other observations

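Markers of other blood cells were looked up in 3 lists, beside 2.68% of all protein-coding genes named in CML-TKI, 1.93% for CML and 1.03% for WT. Of 19 erythroid and megakaryocytic genes 0 were named in any library. Of 16 mature myeloid genes 1 was named, the lysozyme gene Lyz1, by a CML-TKI peak (intergenic, -9155 bp). Of 16 lymphoid genes 1 was named, Klrb1c, a receptor of NK cells, in CML (transcript end, 10832 bp).

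Peaks in RMER16-int, the repeat of the Slamf1 site, named 47 of the 681 genes named in CML-TKI. They named 12 of 493 in CML and 14 of 262 in WT. One such peak lay 839.5 kb from the Etv6 promoter site, was listed in CML-TKI and was named for 2700089E24Rik. Repeats of any kind held 48.5% of CML-TKI peaks, 43.4% of CML peaks and 52.4% of WT peaks.

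Listed distances were checked against a TSS taken as the median implied by CML-TKI and CML peaks. Peaks of these libraries were thus partly checked against themselves, and WT peaks were not, so the percentages are not on an equal footing. The listed distance differed by more than 2 bp from that of the centre of the listed ends in 3.55% of CML-TKI peaks and 3.14% of CML peaks. In WT it did so in 49.8% of the 645 peaks checked. Of the WT peaks described here, the Slamf1 peak was the only one with such a difference.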
